A study of Mus musculus with 22 samples.

Results

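The 10 genes of fat handling described here were followed in mouse lung 24 hours after exposure to Mitsui7, a long and rigid multiwalled carbon nanotube. They were lipoprotein lipase (Lpl), its inhibitor angiopoietin-like 4 (Angptl4), endothelial lipase (Lipg), the fatty acid carrier Fabp4, the intracellular lipases Pnpla2, Lipe and Mgll, the lipid droplet coat protein perilipin 2 (Plin2), and the uncoupling proteins Ucp2 and Ucp3. They were chosen by name, as the genes reached by 15 array probes whose RefSeq accession belongs to 1 of them, out of 20018 genes named in that way. The choice was made with earlier results of these data known. The study itself had reported Lpl, Lipe, Ucp2 and Ucp3 as raised at its highest dose. All animals were female C57BL/6 mice, 8 weeks old at the start, that received a single dose into the trachea under anaesthesia. The vehicle, given alone to 5 control mice, was 0.9% NaCl with 10% bronchoalveolar lavage fluid of other C57BL/6 mice. The exposed mice received 18 µg (n = 6), 54 µg (n = 5) or 162 µg (n = 6) of Mitsui7 in that vehicle. RNA of the right lung was labelled with Cy5 and hybridised on dual-colour arrays against a common reference RNA of mouse cell lines labelled with Cy3. Each value is therefore the log2 ratio of lung to reference RNA after loess normalization, without a dye swap, and compares mice for the same probe but not probes with each other. The lung RNA holds every cell type of the organ, so fewer cells of a type and less RNA per cell cannot be told apart.

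In the field's standard account, Lpl cuts triglyceride carried by lipoproteins at the wall of capillaries, and Angptl4 inactivates it. Lipg acts in the same place, mainly on phospholipid. Inside the cell, triglyceride stored in droplets is broken down in sequence by Pnpla2 (adipose triglyceride lipase), Lipe (hormone-sensitive lipase) and Mgll (monoglyceride lipase), while Plin2 coats the droplet. Fabp4 binds fatty acids in adipocytes, macrophages and some endothelial cells. Ucp2 and Ucp3 are carriers of the inner mitochondrial membrane, related to the heat-producing Ucp1 of brown fat. Several of these genes are textbook targets of the PPAR family of fatty acid receptors. In the lung, macrophages take up surfactant lipid, and lipofibroblasts and type II cells handle fatty acids for surfactant.

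The windows before the start sites are shown for the genes with an entry that rose together at 162 µg, Plin2, Pnpla2 and Ucp3, and for Ucp2, the neighbour of Ucp3. RefSeq windows (GRCm38.p6) running from 250 bases before a start to 50 bases after it were matched for 6 of the 10 genes. Lpl, Angptl4, Lipg and Fabp4 had no entry used here. The bases shown lie outside the annotated gene and run 5′ to 3′ on the strand of the gene. Capitals mark AGGTCA, the hexamer bound by nuclear receptors, read on either strand.
Plin2, chr4:86670218-86670309, minus strand: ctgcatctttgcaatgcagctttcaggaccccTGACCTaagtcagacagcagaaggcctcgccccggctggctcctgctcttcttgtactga
Pnpla2, chr7:141454938-141455187, plus strand: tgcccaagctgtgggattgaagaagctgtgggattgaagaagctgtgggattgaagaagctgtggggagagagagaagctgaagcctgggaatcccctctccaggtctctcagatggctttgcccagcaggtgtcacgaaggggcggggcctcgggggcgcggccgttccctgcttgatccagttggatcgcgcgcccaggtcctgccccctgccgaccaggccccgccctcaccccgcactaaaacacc
Ucp3, chr7:100472741-100472990, plus strand: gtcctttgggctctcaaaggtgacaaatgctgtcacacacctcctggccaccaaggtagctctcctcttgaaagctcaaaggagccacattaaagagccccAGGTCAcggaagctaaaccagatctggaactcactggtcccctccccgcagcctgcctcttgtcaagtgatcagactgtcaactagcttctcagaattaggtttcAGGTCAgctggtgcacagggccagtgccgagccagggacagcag
Ucp2, chr7:100493108-100493336, plus strand: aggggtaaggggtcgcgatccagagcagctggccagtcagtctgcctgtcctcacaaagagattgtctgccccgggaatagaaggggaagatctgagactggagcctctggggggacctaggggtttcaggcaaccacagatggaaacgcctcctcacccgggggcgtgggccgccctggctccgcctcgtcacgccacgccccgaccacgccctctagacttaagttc
The window of Ucp3 held AGGTCA at 2 places and that of Plin2 at 1 place, there as its reverse complement, whereas those of Pnpla2 and Ucp2 held none. Of 32851 windows of the same length, 16.3% held at least 1 copy on either strand. No window of the 6 genes held AGGTCANAGGTCA, in which the hexamer is repeated after 1 base and which overlaps with it by definition (0.0396% of all windows). CACGTG, found in 7.15% of all windows, was present for Plin2 and for 1 window each of Lipe and Mgll. CCAAT, found in 37.4%, was present for Plin2. These matches are letters in a window and say nothing of binding.

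At 162 µg, 5 of the 10 genes rose against controls and none fell. They were Angptl4, Lpl, Ucp3, Pnpla2 and Plin2, with changes of 1.88-fold to 6.34-fold. A gene was said to rise or fall where limma, fitted with dose and slide over all 22 arrays, gave a Benjamini-Hochberg adjusted p of at most 0.05 over 55681 probes, the change was at least 1.5-fold and the probe was above the negative control spots. Among all 20018 named genes, 2.74% rose and 2.9% fell by that rule at 162 µg. The median log2 fold change of the 10 genes was 0.98, beside -0.0006 for all named genes. Because the 10 genes were chosen with earlier results of these data known, these comparisons are a description and not a test. At 18 µg none of the 10 passed the rule, and 1 of them, Lpl, had an unadjusted p below 0.05. Of all named genes, 0.52% rose and 1.18% fell at 18 µg, and 3803 had an unadjusted p below 0.05. The median log2 fold change of the 10 genes was -0.07 at 18 µg, with 6 of 10 values below 0, beside 10497 of 20018 named genes. At 54 µg again none of the 10 passed, with 2 at an unadjusted p below 0.05, Angptl4 and Plin2. The background at 54 µg was 0.205% rising and 0.115% falling, with 2396 named genes at an unadjusted p below 0.05. The median at 54 µg was 0.21, with 9 of 10 values above 0, beside 9747 of 20018 named genes.

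**Figure D1:**
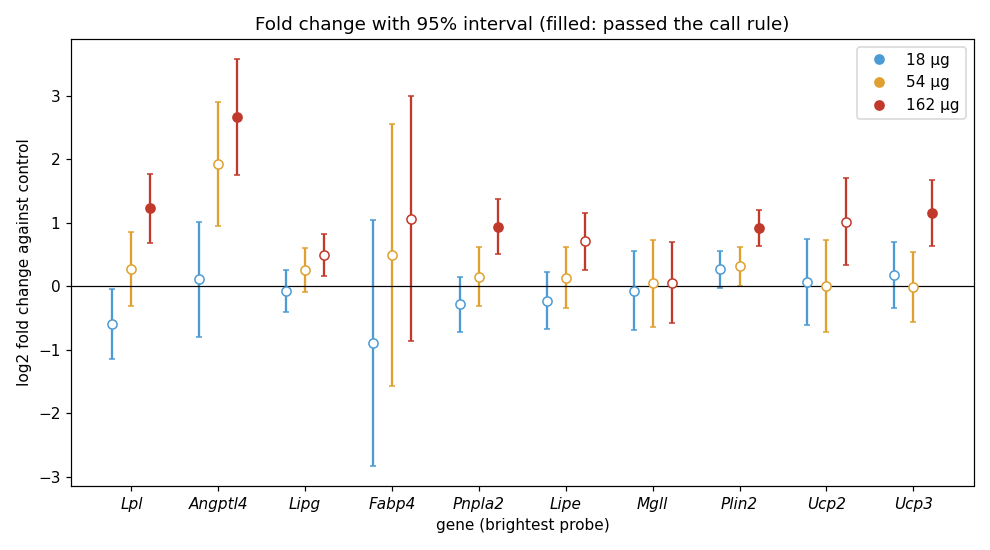
Log2 fold change of each gene against the 5 controls at 18, 54 and 162 µg on its brightest probe, with the 95% confidence interval of the limma fit. Filled points passed the call rule, and all 5 of them belong to 162 µg.

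Angptl4 had the largest difference of the 10 genes at 162 µg. In the 5 controls its log2 ratio was -0.82, 2.17, 0.70, 1.24 and -0.70, a spread of 1.28 (SD). At 18 µg it ran from -0.38 through a median of 0.87 to 1.41. At 54 µg the 5 mice had 1.70, 2.05, 3.06, 2.55 and 2.92. At 162 µg the lowest, median and highest were 3.20, 3.38 and 3.55. Every mouse at 162 µg lay above every control and above every mouse at 54 µg, while the values at 18 µg fell inside the control range. The spread was smallest at 162 µg (SD 0.15, n = 6). The change at 162 µg was 6.34-fold (95% confidence interval 3.37 to 11.9, adjusted p = 0.0017). At 54 µg the change was 1.92 on the log2 scale (standard error 0.46, adjusted p = 0.12), and 3 of 5 mice lay above all controls. That value passed the rule with slide as a random block (adjusted p = 0.047), with the Cy5 channel alone (adjusted p = 0.033), and with the 54 µg and control arrays fitted by themselves (adjusted p = 0.003). It also passed without control replicate 2 or without 18 µg replicate 2. At 18 µg the log2 fold change was 0.11 (standard error 0.43).

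Lpl, the enzyme that Angptl4 inhibits, was higher at 162 µg and, on its brightest probe, had its lowest values at 18 µg. The controls had log2 ratios of 1.57, 1.60, 1.69, 2.54 and 1.33. At 18 µg the lowest, median and highest were 0.82, 1.23 and 1.502, and 4 of 6 mice were below all controls. At 54 µg the values were 1.20, 1.75, 2.64, 2.03 and 2.59, on both sides of the control range. At 162 µg 5 of 6 mice lay between 2.91 and 2.99 and the remaining one, replicate 5, at 3.79. All 6 were above all controls. The change at 162 µg was 2.34-fold (95% confidence interval 1.60 to 3.43, adjusted p = 0.0095). Without replicate 5 of that group the log2 fold change was 0.98, against 1.23 with it, and the call was kept. At 162 µg the second Lpl probe gave 1.08 (log2, standard error 0.17, adjusted p = 0.0012), again with 6 of 6 mice above all controls. At 18 µg the first probe had a log2 fold change of -0.59 (adjusted p = 0.28) and the second -0.16 (adjusted p = 0.72), neither of which passed. On the second probe 0 of 6 mice at 18 µg were below all controls.

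Endothelial lipase, Lipg, had smaller differences. Its probe was well above background on 4 of 5 control arrays, 3 of 6 at 18 µg and all arrays at the other doses. Control log2 ratios were 0.59, 1.02, 1.27, 0.23 and 1.37, and those at 162 µg ran from 0.98 through 1.38 to 1.99, with 3 of 6 above all controls. At 162 µg the change of 0.49 on the log2 scale (standard error 0.16, adjusted p = 0.075) did not pass.

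Among the intracellular lipases, Pnpla2, which takes the first fatty acid off stored triglyceride, rose at 162 µg. Its control log2 ratios were 1.17, 1.40, 1.35, 1.79 and 1.39. At 18 µg they ran from 1.03 through 1.11 to 1.79, with 4 of 6 mice below all controls, and at 54 µg they were 0.97, 1.49, 2.25, 1.62 and 1.82. At 162 µg the lowest, median and highest were 1.77, 2.50 and 3.15. There, 5 of 6 mice were above all controls, and the lowest one was just below the highest control. The change was 1.92-fold (95% confidence interval 1.42 to 2.59, adjusted p = 0.012). The call was lost without control replicate 5.

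Lipe, the next enzyme, had control log2 ratios of 0.69, 1.34, 1.23, 1.40 and 0.61 and 162 µg ratios of 1.24, 1.56 and 2.40 as lowest, median and highest. At 162 µg 4 of 6 mice were above all controls. Against controls the difference was 0.71 on the log2 scale (standard error 0.21, adjusted p = 0.060), just outside the rule, and it passed under 4 of 16 settings, among them the deposited log2 table (0.62, adjusted p = 0.044), slide as a random block (0.69, adjusted p = 0.040) and the adjustment over expressed probes (adjusted p = 0.043).

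Mgll, which acts last, showed no difference that passed at any dose on any of its 4 probes, 1 of which was not above the negative control spots. On the brightest probe control log2 ratios were 5.26, 5.42, 5.51 and 5.10, with 1 outlier spot left out, and those at 162 µg ran from 4.00 to 6.29 over 5 mice. The log2 fold change at 162 µg was 0.06, with a 95% confidence interval of -0.58 to 0.69, that is 0.667-fold to 1.62-fold.

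Plin2, the coat protein of lipid droplets in cells other than adipocytes, rose at 162 µg with the smallest error of the 10 genes. The controls had log2 ratios of 0.53, 0.61, 0.44, 0.81 and 0.47. At 18 µg the lowest, median and highest were 0.30, 0.78 and 0.87. At 54 µg the values were 0.87, 1.11, -0.12, 0.87 and 0.79, replicate 3 lying far below the others. At 162 µg they ran from 0.99 through 1.32 to 1.71, and 6 of 6 mice were above all controls. The change was 1.88-fold (95% confidence interval 1.55 to 2.30, adjusted p = 0.00085). The values of Plin2 at 18 µg and 54 µg did not pass (log2 fold changes of 0.26 and 0.31, adjusted p = 0.37 and 0.56).

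Ucp2 and Ucp3 lie next to each other on chromosome 7. Ucp3 rose at 162 µg. Its control log2 ratios were 0.72, 1.499, 0.59, 0.93 and 0.72, and at 162 µg the lowest, median and highest were 1.47, 2.02 and 3.33. At 162 µg 5 of 6 mice were above all controls. The change was 2.22-fold (95% confidence interval 1.55 to 3.18, adjusted p = 0.0099), and the call was lost without control replicate 3. The other Ucp3 probe was well above background on 1 of 5 control arrays and on no array of exposed mice. At 162 µg it gave 0.02 on the log2 scale (standard error 0.11), so the call rests on 1 of 2 probes. Taken as the mean of both probes, the log2 fold change was 0.58 and below the 1.5-fold limit (adjusted p = 0.011).

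Ucp2 had control log2 ratios of 0.67, 1.40, 0.74, 1.23 and 0.98. At 162 µg the lowest, median and highest were 1.76, 1.98 and 3.96, and 6 of 6 mice were above all controls. Its change of 1.02 on the log2 scale (standard error 0.32, adjusted p = 0.076) did not pass, with 1 mouse, replicate 6, far above the rest. It passed under 6 of 16 settings, among them no slide term (1.33, adjusted p = 0.038), slide as a random block (1.20, adjusted p = 0.031) and the 162 µg and control arrays alone (0.97, adjusted p = 0.013). The brightest Ucp3 probe and the Ucp2 probe followed each other over the 22 arrays (Pearson r = 0.94 after slide means were taken out). The mouse with the highest Ucp2 value at 162 µg also had the highest Ucp3 value, as did replicate 6 at 18 µg and replicate 3 at 54 µg in their groups. Cy5 signal over background was 1.18 for replicate 6 at 162 µg and 1.24 for replicate 6 at 18 µg, the lowest of their groups. For replicate 3 at 54 µg 58.1% of probes were above the negative control spots, the lowest share of that group. The part of array quality in these values was not tested. Probe sequences were not used here, and whether the Ucp3 probe also detects Ucp2 RNA, a close relative, was not tested. The study's quantitative PCR of lung RNA (n = 3) listed no significant change of Ucp2 or Ucp3 at 162 µg. It listed significant decreases of both genes at 18 µg and 54 µg.

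**Figure D2:**
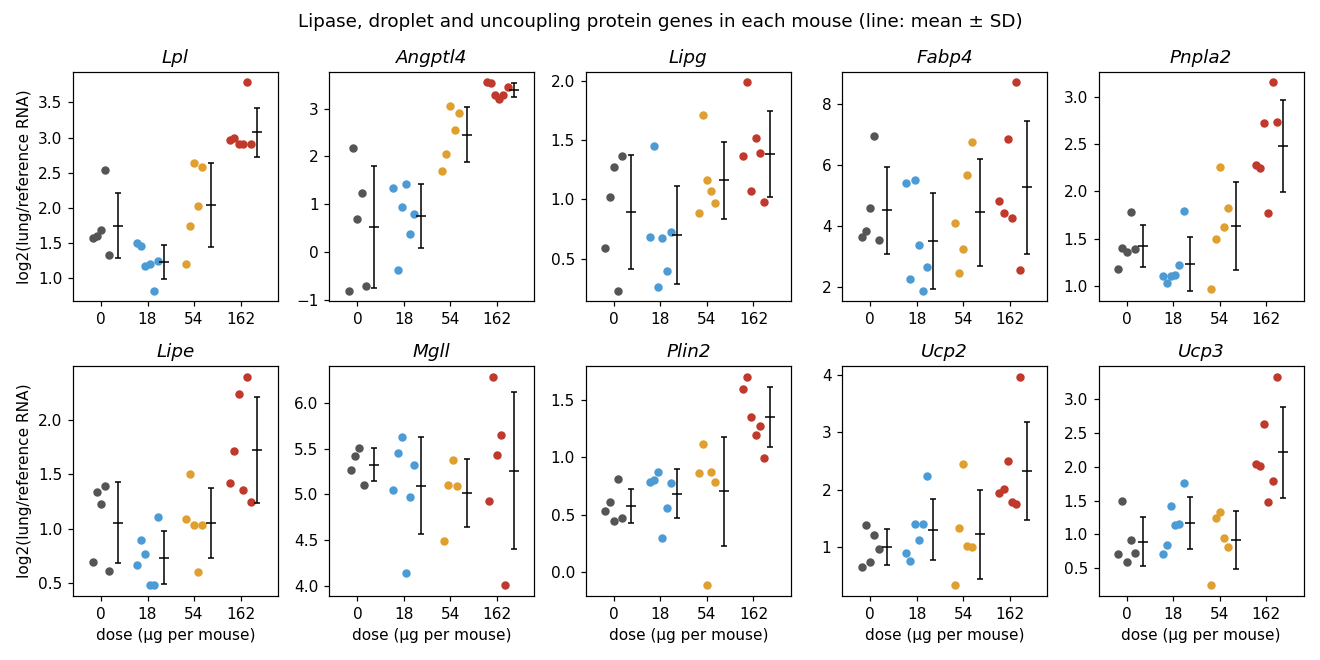
Log2 ratio of lung to reference RNA of each gene (brightest probe) in each mouse against dose, where 0 µg is vehicle. Points are mice, and bars give mean ± SD. For Angptl4, Lpl, Plin2 and Ucp2 all 6 mice at 162 µg lie above all 5 controls.

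Non-overlap was read separately from the fit. At 162 µg all mice lay above all controls for 4 of the 10 genes, Angptl4, Lpl, Plin2 and Ucp2, where 3.12% of all named genes did so. At 18 µg and 54 µg this held for 0 of the 10 genes, beside 1.2% and 1.34% of all named genes. These shares too describe genes chosen with earlier results known and are not a test.

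Fabp4 varied more between mice of 1 group than between groups. Its control log2 ratios were 3.62, 3.82, 4.58, 6.95 and 3.52. At 18 µg the lowest, median and highest were 1.86, 3.00 and 5.48. At 54 µg the values were 4.09, 2.46, 3.24, 5.65 and 6.73. At 162 µg they ran from 2.54 through 4.61 to 8.70, a span that covers the whole control range. The log2 fold change at 162 µg was 1.07 with a 95% confidence interval of -0.87 to 3.00 (adjusted p = 0.64). Without replicate 5 of that group it was 0.18.

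Markers of adipocytes moved with Fabp4 from mouse to mouse. All 8 of the marker genes Adipoq, Lep, Retn, Cfd, Adig, Plin1, Cidec and Ucp1 were on the array, and 2 of them, Adig and Cidec, were well above background on all arrays. Their summed Cy5 level, relative to the 75th percentile of the array, ran from 20.3 to 316 in controls, from 3.58 to 111 at 18 µg, from 3.06 to 220 at 54 µg and from 5.23 to 966 at 162 µg. The array with 316 was control replicate 4 and the one with 966 was 162 µg replicate 5, the mice with the highest Fabp4 and the highest Lpl value of their groups. Over the 22 arrays Fabp4 had a Pearson r of 0.95 with the log2 of that level, a description over libraries that share their dose groups and slides, whereas the other 9 genes ran from -0.23 for Lipg to 0.53 for Mgll (19 arrays), with 0.40 for Lipe, 0.38 for Lpl, 0.32 for Pnpla2 and 0.21 for Angptl4. No adipocyte marker passed the rule at any dose. Heart and skeletal muscle markers, 9 of 9 on the array, ran from 15.7 to 660 in controls and from 13.5 to 294 at 162 µg, and Fabp4 had an r of 0.73 with them, Lpl of 0.46 and Lipe of 0.45.

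With the log2 adipocyte marker level added as a covariate, an alternative chosen after the values were seen, the change of Fabp4 at 162 µg was 1.05 on the log2 scale (adjusted p = 0.0084). Without the covariate that change was 1.07 (adjusted p = 0.64), and Fabp4 itself had an r of 0.95 with the covariate. The fit with the covariate was not repeated with single mice left out. In the same fit Lpl was at 1.22 (adjusted p = 0.0026), Angptl4 at 2.66 (adjusted p = 0.00063), Pnpla2 at 0.94, Plin2 at 0.91 and Ucp3 at 1.15. All 5 genes that rose at 162 µg passed in that fit, joined by Fabp4, Lipe and Ucp2.

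**Figure D3:**
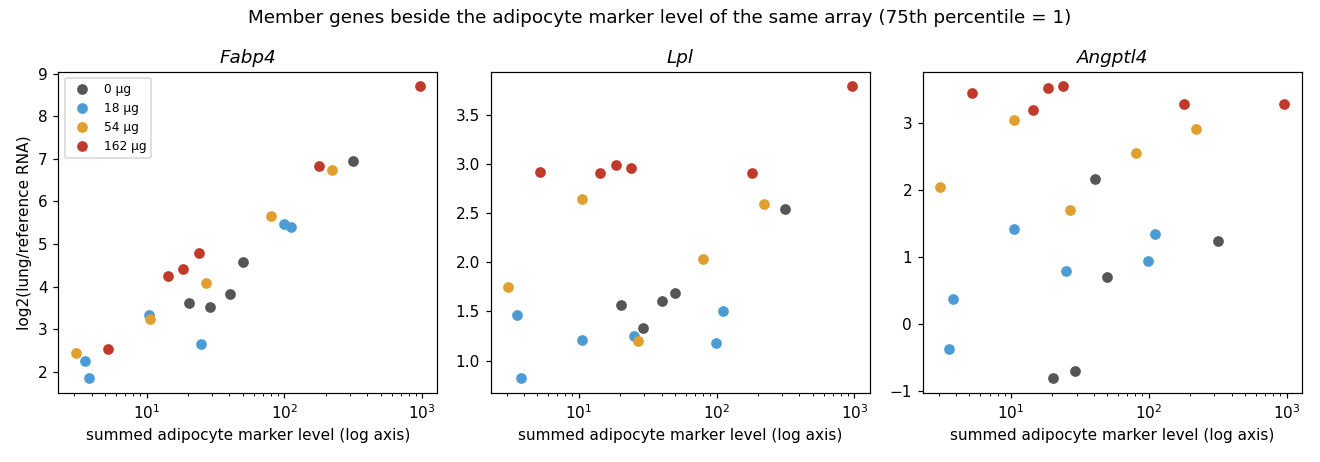
Log2 ratio of Fabp4, Lpl and Angptl4 (vertical axes) in each of the 22 mice against the summed adipocyte marker level of the same array (log axis, 75th percentile of the array set to 1), coloured by dose. Fabp4 follows the marker level in every dose group. At 162 µg 5 of 6 mice hold Lpl between 2.91 and 2.99 over marker levels of 5.23 to 180. Replicate 5 of that dose has Lpl at 3.79 and a level of 966. Among controls, the mouse with the highest level, 316, also has the highest Lpl, 2.54.

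The summed level of 7 markers of resident alveolar macrophages (7 of 7 on the array and well above background on all arrays) ran from 139 to 233 in controls and from 234.5 to 343 at 162 µg. It reached its highest values at 18 µg (152 to 562). Its genes differed in direction. At 18 µg 4 of the 7 had a log2 fold change above 0 and 3 below (median 0.16, lowest -0.61 for Siglecf), and at 162 µg 6 were above and 1 below (median 0.23, Siglecf at -0.64). Of the 7, the scavenger receptor Marco rose by 1.51 on the log2 scale at 162 µg (adjusted p = 0.0046), and Chil3 by 1.73 at 18 µg (adjusted p = 0.045). For recruited monocytes and macrophages, with 5 of 6 markers on the array, the sum ran from 4.98 to 10.2 in controls and from 9.38 to 12.2 at 162 µg, and Arg1 (1.76, adjusted p = 0.033) and Spp1 (0.80, adjusted p = 0.0067) rose at 162 µg. These genes also differed in direction, with 4 log2 fold changes above 0 at 162 µg and 1 below (-0.51). Ccr2 had a mean log2 ratio of 3.73 in controls, 2.69 at 18 µg and 2.82 at 162 µg. Lpl, Plin2, Fabp4 and Ucp2 are all known from macrophages, and the part of these cells in the differences at 162 µg was not tested. The endothelial sum ran from 116 to 220 in controls and from 184 to 268 at 162 µg, with no endothelial marker passing at that dose. Neutrophil markers ran from 136 to 555 in controls (median 151) and from 107 to 532 at 162 µg (median 229). The 555 belonged to control replicate 2. At 162 µg 5 of 6 neutrophil markers had a log2 fold change above 0 and 1 below. The study counted more neutrophils and fewer macrophages in lavage fluid with rising dose, the fall of macrophages being significant at 162 µg. Alveolar fibroblast markers ran from 207 to 265 in controls and from 185 to 218 at 162 µg. No neutrophil or fibroblast marker passed at 162 µg.

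Slides held 3 or 4 arrays, and 5 of 7 held a control, so that treated mice could also be set against the control on their own slide. At 162 µg these differences were above 0 on 4 of 4 slides for Angptl4 (1.38 to 3.99), Lpl (0.36 to 2.45), Pnpla2 (0.87 to 1.76), Plin2 (0.54 to 1.26), Ucp3 (0.53 to 1.70), Ucp2 (0.54 to 1.28), Lipe (0.08 to 1.79) and Lipg (0.03 to 0.84). Fabp4 was above its slide's control on 2 of 4 slides and Mgll on 2 of 3. The second Ucp3 probe was above on 2 of 4 slides (-0.19 to 0.38). The share of all named genes above or below their slide's control on every slide was not counted at any dose. At 18 µg Lpl, Pnpla2 and Lipe were below the slide's control on 4 of 4 slides, the farthest differences being -1.36, -0.69 and -0.63, and none of these changes passed the rule in the fit. The second Lpl probe was below on 3 of 4 slides at that dose (-0.27 to 0.34). Angptl4 at 54 µg was above its slide's control on 3 of 3 slides (1.34 to 3.25).

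**Figure D4:**
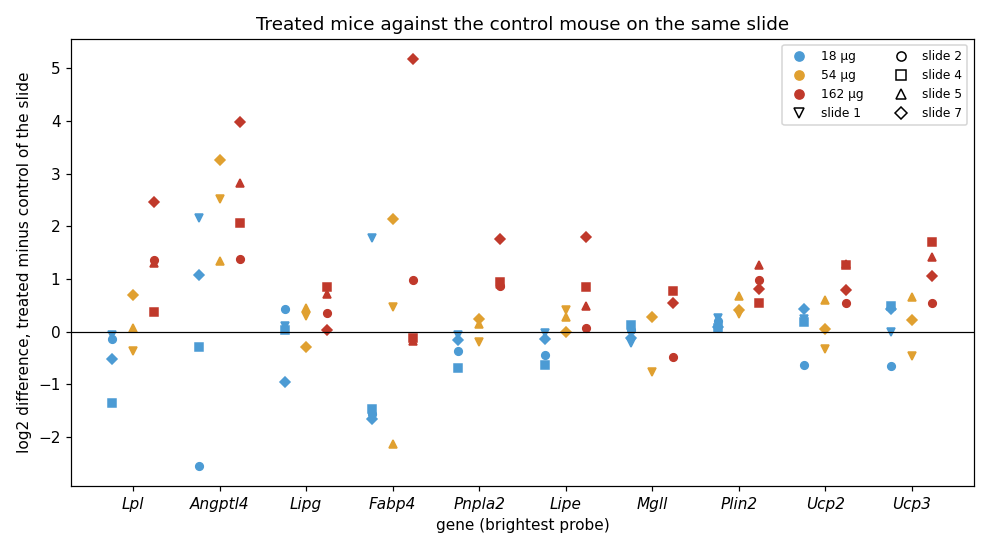
Log2 difference of each treated mouse from the control mouse on the same slide, for each gene, with colour for dose and symbol for the 5 slides that held a control. On the brightest probe 8 of the 10 genes are above 0 on every slide at 162 µg, the exceptions being Fabp4 and Mgll. The share of all named genes that are so was not counted.

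Comparing doses directly asks whether the genes followed the amount of Mitsui7, without the controls as baseline. Between 162 µg and 18 µg, 6 of the 10 genes were higher at the larger dose and 0 lower, where 2.74% of all named genes were higher and 1.36% lower. Here again the genes had been chosen with earlier results known, so the share is a description. The log2 differences were 2.56 for Angptl4 (adjusted p = 0.0018), 1.82 for Lpl (adjusted p = 0.00058), 1.22 for Pnpla2 (adjusted p = 0.0017), 0.97 for Ucp3 (adjusted p = 0.022), 0.94 for Lipe (adjusted p = 0.012) and 0.65 for Plin2 (adjusted p = 0.0069). Lipg had an adjusted p of 0.037 at a difference of 0.56, under the 1.5-fold limit, and Fabp4 did not pass (1.96, adjusted p = 0.26). The Ucp3 call between these doses was lost without 18 µg replicate 2, without 162 µg replicate 3 or without 162 µg replicate 6, and that of Plin2 without 162 µg replicate 4. The summed adipocyte and muscle levels were also lower at 18 µg, with medians of 17.8 and 41.8 against 21.3 and 118 at 162 µg, and all 6 calls passed with either level as a covariate. Both covariates were chosen after the values were seen, and the part of fat or muscle in these differences was not tested. Between 162 µg and 54 µg limma called 0 of the 10 genes and 0% of all named genes in either direction, although 6 of the 10 and 2133 named genes had an unadjusted p below 0.05. All 10 log2 differences were above 0 there, from 0.01 for Mgll to 1.16 for Ucp3 (adjusted p = 0.19), beside 10242 of 20018 named genes above 0. Without 54 µg replicate 3 the genes Pnpla2, Ucp2 and Ucp3 passed, and without 162 µg replicate 4 Pnpla2 and Ucp3. These arrays had the most outlier spots of their groups, 1914 and 2619.

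The normalization bears on these calls. When arrays were centred on their median in place of loess, Angptl4 and Ucp3 still passed at 162 µg but Lpl (0.84, adjusted p = 0.42), Pnpla2 (0.54, adjusted p = 0.47) and Plin2 (0.55, adjusted p = 0.60) did not. Median centring also ended the calls of Lipe, Pnpla2 and Plin2 between 162 µg and 18 µg. Without any normalization none of the 10 passed in either comparison. In that comparison of doses Lipe also missed the rule with the Cy5 channel alone (0.62, adjusted p = 0.17) and with only these groups fitted (0.98, adjusted p = 0.052), and Ucp3 with the deposited log2 table (0.84, adjusted p = 0.091). Under median centring the median of all named genes was itself shifted by -0.12 at 162 µg, and without normalization by -0.14.

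The wider pathway was counted over 82 further genes in 6 lists, of which 81 were on the array and 77 above the negative control spots. At 162 µg 3 of the 81 rose and 0 fell, where 2.74% of all named genes rose and 2.9% fell, so the share that rose was near that of all genes. They were Slc25a20, the carnitine carrier of mitochondria (log2 fold change 0.72, adjusted p = 0.014), Acot2, a mitochondrial thioesterase (0.70, adjusted p = 0.040), and Apoc3, an apolipoprotein that restrains lipoprotein lipase (1.27, adjusted p = 0.046). The Apoc3 probe was well above background on 2 of 5 control arrays and 4 of 6 arrays at 162 µg. The median log2 fold change of the 81 genes at 162 µg was 0.14, beside -0.0006 for all named genes. At 18 µg 0 of the 81 rose. At 54 µg 0 of the 81 passed, with 8 at an unadjusted p below 0.05. Between 162 µg and 18 µg Pdk4, the kinase that shuts glucose carbon out of mitochondria, was higher by 2.43 (adjusted p = 0.0043) and Acadl, a fatty acid dehydrogenase, by 0.83 (adjusted p = 0.0051). These 2 of 81 are again near the 2.74% of all named genes that were higher.

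By list, 2 of 16 genes of fatty acid oxidation and mitochondrial carriers rose at 162 µg (median 0.30), and 1 of 14 of the lipoprotein lipase system (median 0.18), beside 2.74% of all named genes. None of 12 genes of intracellular lipolysis (median 0.12), 18 of droplet formation and coat (median 0.08), 13 of fatty acid uptake and activation (median 0.23) or 8 PPAR receptors and cofactors (median 0.05) passed at that dose. The list of receptors and cofactors had log2 fold changes between -0.19 and 0.21 at 162 µg.

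For each gene that rose at 162 µg, the 3 genes most like it were found by Pearson r over the 22 arrays after slide means were taken out, among 14976 expressed genes, as a description of arrays that share dose groups. Angptl4 was nearest to Fkbp5 (0.92), Cebpd (0.92) and Fst (0.92). Lpl was nearest to Acadl (0.95), Pfkfb1 (0.95) and Ldhd (0.93), and Pnpla2 to Phka2 (0.94), Eci2 (0.94) and Slc25a42 (0.93). Plin2 was nearest to Acot10 (0.93), Spopl (0.92) and Csf3 (0.91), and Ucp3 to its neighbour Ucp2 (0.94), Grina (0.94) and Mpv17l2 (0.93). Among the 10 genes, Lpl and Pnpla2 had an r of 0.91 and Pnpla2 and Lipe of 0.86, whereas Fabp4 had -0.11 with Ucp2.

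All 12 lung epithelial markers were well above background on every array. Cy5 signals over the local background had a group median of 2.00 for the controls against 1.44, 1.49 and 1.72 for the rising doses, but the groups overlapped, with 1.52 to 2.05 on control arrays and 1.18 to 2.50 at 162 µg, and between 52.1% and 83.5% of probes per array were above the negative control spots. The 5 control and 5 mid-dose arrays are fewer than the 6 mice per group given in the study's text. Each sample is 1 mouse, so the p-values set a difference against variation between mice. That variation is pooled over all groups after slide is fitted, and is not the spread of a single group.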

How the data were processed

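The 10 genes, the gene lists and the tests were chosen with earlier results of these data known. The authors deposited spot intensities, that is the median pixel signal of each channel without background subtraction, as read by Feature Extraction (version 10.7.3.1 in the file headers). A table of log2 ratios came with the deposited files, whose normalization is not given in the sources used here and which served as an alternative (r with the loess ratios 0.834 to 0.998 per array). Outlier spots were left out. Log2 ratios of Cy5 to Cy3 were loess-normalized within arrays (span 0.3, fitted without control spots, no background subtraction). Replicate spots were reduced to their median. The 55681 probes were fitted with limma 3.58.1 in R 4.3.3 (group and slide fixed, 12 residual degrees of freedom). The Benjamini-Hochberg adjustment ran over all probes. A gene is represented by its brightest probe, and 26413 probes were named through RefSeq accessions. A probe was expressed where Cy5 exceeded the trimmed mean (5% trimmed) plus 3 trimmed SD of the 308 negative controls on 80% or more of the arrays in any group. Named genes are the 10 genes, list genes that passed, and the 3 genes most like each gene that rose. A result of the pathway lists at 18 µg is not reported here. The fit was tested on simulated data. The number of arrays limits the precision, the median standard error of a log2 fold change being 0.12 at 162 µg. Arrays correlated at 0.959 at most, so that no array was taken for a copy. Alternatives were other background correction, normalization, slide terms, filters and probe rules, marker levels as covariates (chosen after seeing the data), and leaving out each mouse. Promoter windows are RefSeq's, read with Python 3.11.15.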

Additional observations from a re-analysis of the deposited data

Results flagged for a closer look

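Of 40 sets of values examined for a single distant mouse (10 genes in 4 groups), 4 held one, where chance gives about 1 in 20. Lpl at 162 µg was highest in replicate 5, at a log2 ratio of 3.79 with the next mouse at 2.99, and that mouse also had the highest adipocyte marker level of all 22 arrays. Ucp2 at 162 µg was highest in replicate 6, at 3.96 with the next at 2.50. Pnpla2 at 18 µg was highest in replicate 6, at 1.79 with the next at 1.23. Plin2 at 54 µg was lowest in replicate 3, at -0.12 with the next at 0.79. The arrays of replicate 6 at 162 µg and at 18 µg had the lowest signal over background of their groups. The array of replicate 3 at 54 µg had the lowest share of probes above the negative control spots in its group.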

How the results depend on the processing

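Of the genes that rose at 162 µg, Angptl4 kept that call under 15, and Lpl, Pnpla2, Plin2 and Ucp3 each under 14, of the 16 settings other than leaving out a mouse. Settings that changed only the expression filter reused the same fit and adjusted p, so a call kept there says little. The 10-gene count at 162 µg was 2 with median centring, 0 without normalization and 8 with the adipocyte marker covariate. Between 162 µg and 18 µg it was 0 without normalization. At 54 µg it was 1 with the Cy5 channel alone, with slide as a random block and with only the groups compared, and 0 to 1 with single mice left out. Between 162 µg and 54 µg it ran from 0 to 3 with single mice left out. The wider lists at 162 µg gave 1 gene with normexp background correction, 0 with median centring, without normalization, with the deposited log2 table or with no slide term, and 1 to 4 with single mice left out (1 without control replicate 1 or 3, 18 µg replicate 3 or 54 µg replicate 1). At 18 µg they gave 0 with median centring, without normalization, with the deposited table or with the adipocyte covariate, 2 with the Cy5 channel alone, and 0 to 2 with single mice left out. At 54 µg they gave 1 with the Cy5 channel alone and 3 with only the groups compared. The cause of these differences was not tested.

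The replicate numbers were not taken to pair the mice, since neither the labels nor every pair's correlation does so. Deviations from group means of same-numbered mice correlated at -0.17 to 0.62 (median 0.17), and 20 of 31 pairs exceeded 0.1, against a median of -0.06 and 40 of 150 pairs for different numbers. With the replicate number as a block in place of slide, 6 of the 10 genes passed at 162 µg, 8 between 162 µg and 18 µg and 0 at 18 µg and 54 µg, and the wider lists gave 2 genes at 18 µg and 1 at 54 µg. Of 22 arrays, 12 correlated best with one of their own number. Some mice of the same number shared a slide, such as replicate 1 of the control, 18 µg and 54 µg groups on slide 1. Slide was not taken out of these correlations, and its part in them was not tested.

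No value that passed changed sign under any setting. Values that had not passed and changed sign were as follows on the log2 scale. Mgll at 162 µg was -0.012 with normexp, -0.21 with median centring, -0.31 without normalization, -0.12 with Cy5 alone, -0.078 with the deposited table, -0.063 with no slide term, -0.016 with slide as a random block, -0.024 with the replicate block and -0.059 with the muscle covariate, and ran from -0.14 to 0.29 with single mice left out. Mgll at 54 µg was -0.0045, -0.024, -0.063, -0.31, -0.17 and -0.39 with normexp, median centring, the deposited table, no slide term, slide as a random block and the replicate block, -0.25 with only the groups compared, -0.022 and -0.17 with the adipocyte and muscle covariates, and -0.12 to 0.35 with single mice left out. Mgll at 18 µg was 0.029 with the adipocyte covariate and ran from -0.22 to 0.10 with single mice left out, and its difference between 162 µg and 18 µg was -0.020 and -0.027 with the adipocyte and muscle covariates and ran from -0.10 to 0.45. Ucp2 at 18 µg was -0.28, -0.44 and -0.21 with median centring, no normalization and Cy5 alone, -0.13 and -0.062 with the adipocyte and muscle covariates, and -0.044 to 0.22 with single mice left out. Ucp2 at 54 µg was -0.0049 with normexp, -0.028 with Cy5 alone, -0.015 with the deposited table and -0.044 with the adipocyte covariate, and ran from -0.29 to 0.31. Ucp3 at 18 µg was -0.15, -0.31 and -0.077 with median centring, no normalization and Cy5 alone, and -0.041 with the mean of its probes. Ucp3 at 54 µg was 0.0008, 0.16, 0.027 and 0.013 with median centring, no normalization, no slide term and slide as a random block, 0.027 with the replicate block, 0.14 with only the groups compared and 0.12 with the muscle covariate, and ran from -0.16 to 0.20. Angptl4 at 18 µg was -0.30 with median centring and -0.46 without normalization, and ran from -0.31 to 0.63. Lipg at 18 µg was 0.082, 0.23 and 0.16 with median centring, Cy5 alone and the deposited table, and ran from -0.21 to 0.11. Plin2 at 18 µg was -0.14 with median centring and -0.30 without normalization. Lipe was 0.022 at 18 µg with Cy5 alone, and -0.0024 at 54 µg with no slide term or the replicate block. Fabp4 at 54 µg was -0.065 with no slide term or the replicate block and -0.13 with the muscle covariate and ran from -0.23 to 1.09, and at 18 µg was 0.25 with the adipocyte covariate. Pnpla2 at 54 µg ran from -0.041 to 0.29 with single mice left out.

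With 5 or 6 mice a group, the intervals of Mgll and Fabp4 hold both no change and changes of over 1.5-fold at each dose. Signal over background limits Lipg, the second Ucp3 probe and Apoc3.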
